A study of Mus musculus with 40 samples.

Results

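Macrophages clear lipoproteins, microbes and dying cells through surface receptors, and 10 mRNAs of this group were followed here through the response of mouse macrophages to LPS. They were the mRNAs of 9 receptors (*Msr1*, *Marco*, *Cd36*, *Stab1*, *Mrc1*, *Cd163*, *Mertk*, *Axl* and *Timd4*) and of the ligand *Gas6*. They were looked up by gene symbol among the 27179 genes of the deposited expression table, and all 10 were found there. The choice was made with earlier results of these data known. The cells were bone marrow-derived macrophages (BMDMs), grown from femoral marrow of adult male mice with L-cell conditioned medium as the source of M-CSF. They came from 4 wildtype (WT) mice and from 4 mice lacking *Cpeb4* in all tissues (labelled CPEB4-KO, here Cpeb4-/-), both of a mixed C57BL/6J and 129 background. Cells of each mouse were sequenced unstimulated and after 1, 3, 6 and 9 hr with 10 ng/ml LPS, a component of the bacterial outer membrane, which gave 40 libraries in 10 groups of 4. CPEB4 is a protein that binds the cytoplasmic polyadenylation element (CPE) in the 3′ untranslated region (3′-UTR) of mRNAs. The 4 libraries of a group came from separate mice, and the 5 libraries of a mouse share that animal. No labelled cage held both genotypes, so cage and genotype cannot be told apart. Within each genotype some of the mice shared a labelled cage.

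Scavenger receptors bind modified lipoproteins and other polyanionic ligands, and the mannose receptor binds glycans of microbes and of the body's own glycoproteins. Efferocytosis, the removal of apoptotic cells, starts when phosphatidylserine on the dying cell is recognised, either directly, as by TIM4 (the product of *Timd4*), or through a bridging protein, as by the receptor tyrosine kinases MERTK and AXL, which bind GAS6. Several of these receptors are used as markers of macrophages that are not inflammatory, and MERTK and AXL also restrain inflammatory signalling.

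The 3′-UTRs of these mRNAs are shown first because the deleted gene encodes a 3′-UTR binding protein. In the longest 3′-UTR of each gene in GENCODE M21 (GRCm38, the same build as mm10), the CPE spellings TTTTAT and TTTTAAT were searched on the mRNA strand, as was ATTTA, the core of the AU-rich element bound by decay factors. At least 1 of the 2 CPE spellings occurred in the 3′-UTRs of 9 of the 10 genes, against 56.6% of 21020 genes with a 3′-UTR, whose median length was 961 bases. *Marco*, with a 3′-UTR of 121 bases, had none, and *Msr1*, with 2518 bases, had 9. The *Msr1* sites lie between chr8:39603699 and 39605268, whereas the gene, on the minus strand, ends at 39543232. They therefore belong to a transcript that ends early, and the 3′-UTRs of other *Msr1* transcripts were not searched. ATTTA occurred 6 times in *Cd36*, 5 times each in *Msr1* and *Mrc1*, 2 times each in *Mertk* and *Timd4*, and once in *Cd163* and *Gas6*. It occurred in 65.2% of all genes, and *Marco*, *Stab1* and *Axl* had none. The *Axl* 3′-UTR searched held no AATAAA polyadenylation signal and stopped short of the RefSeq end of the gene, so it may be incomplete. The sites below are each given in a window of 30 bases with the CPE in capitals. They are those of the 3 genes whose mRNA was called lower in Cpeb4-/- cells, and the last site of *Mertk*. The CPE of that last site overlaps an AATAAA polyadenylation signal, as does 1 CPE of *Cd36* that is not shown. The *Mertk* 3′-UTR searched also stopped short of the RefSeq end of its gene. A match in letters does not show that the protein binds there.

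Mrc1 (chr2:14331225-14331254, plus strand): agttttcaattTTTTAATtcaatatgattg
Mrc1 (chr2:14331918-14331947, plus strand): gatgacatctaTTTTAATtttttgtgatct
Gas6 (chr8:13465425-13465454, minus strand): attctctattatTTTTATtactacatgctt
Timd4 (chr11:46843646-46843675, plus strand): ttttgtttttgtTTTTATgatattaacttc
Timd4 (chr11:46844143-46844172, plus strand): ctctagctattcTTTTATgcttagtccagg
Mertk (chr2:128802855-128802884, plus strand): aggagattataTTTTAATaaaagatgactt

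Values are rlog, a log2 scale on which the authors corrected counts for library size and shrank differences of weakly expressed genes, so that differences of such genes are understated. The table does not give the depth of the libraries. rlog values of different genes are not set per length, and levels are therefore compared within a gene only. Differences were tested with limma over all genes whose mean rlog reached 2.32 (5 reads), and a gene was called at a Benjamini-Hochberg adjusted p under 0.05. Of the members, 9 passed this filter in every fit. *Timd4* passed it in the LPS time courses only through its late values and is therefore left out of the counts and described by itself.

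The libraries carried the 7 macrophage markers checked at mean rlog values from 14.0 to 18.2. Of the lists for other cells, no B cell, T cell, or mast cell and basophil marker (4 each) reached a mean of 2.32, *Mcpt4* was at 0 in every library, and *Ly6g* was never above −2.27. Among the others 3 of 7 neutrophil, 3 of 5 dendritic cell, 2 of 4 erythroid, 1 of 6 stromal and 3 of 4 endothelial markers did, among them *Mmp8* (up to 9.07), *Xcr1* (up to 7.06), *Kdr* (up to 11.31) and *Vwf* (up to 10.51), whereas *Tek* reached at most −0.35. At 6 hr the summed level of the macrophage markers (2 to the power of rlog) ran from 619000 to 651000 in WT and from 494000 to 575000 in Cpeb4-/- libraries, and that of the neutrophil list from 238 to 283 and from 364 to 429. Such sums are weighted toward their highest gene, *Lyz2* for macrophages and *Mmp8* for neutrophils. At 9 hr the mean of *Lyz2* was 18.31 in WT and 17.94 in Cpeb4-/- cells. Those of *Fcgr1*, *Cd68* and *Cd14* were also lower in Cpeb4-/- cells, whereas those of *Adgre1*, *Csf1r* and *Itgam* were higher. At 9 hr the endothelial list ran from 1240 to 1490 in WT and from 1910 to 2690 in Cpeb4-/- libraries, and the stromal list from 22.0 to 26.2 and from 27.1 to 66.4. The part of these differences in the results below was not tested, and in bulk libraries fewer cells of a type and less RNA per cell cannot be told apart. Leaving out 1 library changed the number of genes that differed between genotypes most for WT mouse 69 at 1 hr (251 to 2440), WT mouse 88 at 3 hr (481 to 2584) and Cpeb4-/- mouse 2 at 9 hr (1029 to 4575), and results that change without these libraries are given both ways. The gene-level value of *Cpeb4* itself was called lower in Cpeb4-/- cells at 6 hr (mean of 9.18 against 10.45) and at no other time, and whether it covers the deleted part is not given in the sources used here.

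In WT macrophages LPS raised *Msr1*, *Marco* and *Axl* and lowered *Mrc1*, *Cd163*, *Stab1*, *Gas6* and, last, *Cd36*, while *Mertk* fell, rose and fell again. Of the 9 members counted, 3 were called at 1 hr against untreated (33.9% of all genes tested), 7 at 3 hr (67.8%), 8 at 6 hr (77.9%) and 9 at 9 hr (71.5%). At 9 hr 3 were higher (35.9%) and 6 lower (35.6%), and in all 9 the values of the treated and untreated WT libraries did not overlap (67.6%). Since most of the genes tested were called from 3 hr on, a call by itself sets the members little apart. Their median absolute difference at 9 hr was 1.37, against 0.41 over all genes tested, but the members were chosen with earlier results known.

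**Figure D1:**
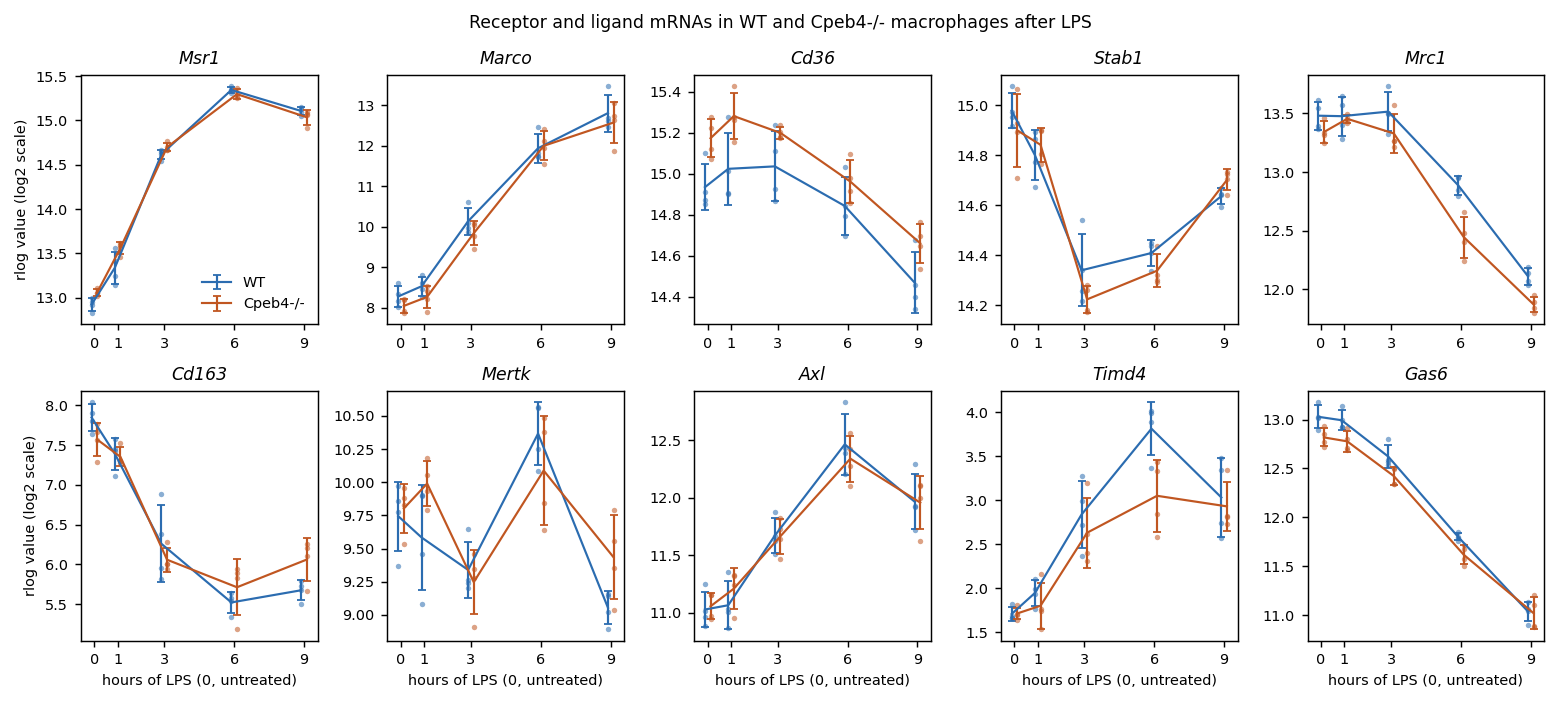
rlog values (log2 scale, a separate vertical axis for each gene) of the 10 mRNAs against hours of LPS, with 1 point per mouse and lines and bars for the mean and SD of 4 WT (blue) and 4 Cpeb4-/- (orange) mice. Marco and Msr1 rise, and Gas6, Mrc1 and Cd163 fall. Mertk is highest at 6 hr in all 4 WT and in 2 of 4 Cpeb4-/- mice. The genotypes separate most clearly for Mrc1 at 6 and 9 hr.

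*Msr1* (chr8:39543232-39642750, minus strand) encodes scavenger receptor A, which takes up modified lipoproteins. Its rlog in the 4 WT mice was 12.83, 12.92, 12.95 and 12.996 when untreated, 14.55, 14.62, 14.64 and 14.67 at 3 hr, and 15.31, 15.34, 15.34 and 15.39 at 6 hr. It was lowest untreated and highest at 6 hr in all 8 mice. The WT difference from untreated was 0.41 ± 0.065 (SE) at 1 hr, 1.69 ± 0.065 at 3 hr and 2.42 ± 0.065 at 6 hr, a 5.35-fold increase (adjusted p = 6.55e-18, and a difference of 1.59 with quantile normalization, which equalizes the distribution of values between libraries). The rise at 1 hr was not called with that normalization (0.15, adjusted p = 0.112). From 6 to 9 hr, a step at which 51.4% of genes tested were called, *Msr1* fell by 0.24 (adjusted p = 0.00472), a difference that turned to 0.090 with quantile normalization.

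*Marco* (chr1:120474538-120505024, minus strand), the scavenger receptor MARCO that binds bacteria and particles, rose the most of the 10. The 4 WT values were 8.01, 8.17, 8.34 and 8.61 untreated and 12.45, 12.60, 12.69 and 13.47 at 9 hr. The increase at 9 hr was 4.52 ± 0.21, or 22.9-fold (adjusted p = 8.16e-14), and was still in progress, since the step from 6 to 9 hr was 0.87 ± 0.21 (adjusted p = 0.00169). At 1 hr all 4 WT mice were slightly higher than untreated, but the difference of 0.25 ± 0.21 was not called (adjusted p = 0.397) until the mouse was fitted as a block (adjusted p = 0.0325). The highest of the 4 WT values was that of mouse 87 at all 5 times, so the spread of *Marco* was larger between mice than that of *Msr1*, with an SD at 9 hr of 0.46 against 0.047.

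*Cd36* (chr5:17781690-17888959, minus strand) encodes a class B scavenger receptor for oxidised lipoproteins and fatty acids. The WT values at 9 hr, 14.34, 14.40, 14.46 and 14.68, lay below the untreated values of 14.85, 14.87, 14.91 and 15.10. The fall at 9 hr was 0.47 on the log2 scale (SE 0.099, adjusted p = 0.000286), and 9 hr was the lowest time in all 8 mice. Before 9 hr no difference was called, with 95% intervals from −0.12 to 0.30 at 1 hr, −0.10 to 0.31 at 3 hr and −0.30 to 0.11 at 6 hr, whereas with quantile normalization *Cd36* was already lower at 1, 3 and 6 hr (−0.36, −0.53 and −0.98) and differed by −1.05 at 9 hr.

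*Stab1* (chr14:31139017-31168651, minus strand) encodes stabilin 1, which takes up acetylated lipoproteins and matrix fragments. It shares exon bases with *Nt5dc2* on the opposite strand, and whether counting used the strand is not given in the sources used here, so its reads are uncertain. *Stab1* fell to 14.22, 14.26, 14.34 and 14.54 at 3 hr in WT mice, from 14.92, 14.95, 14.97 and 15.08 untreated, a difference of −0.64 ± 0.062 (adjusted p = 1.42e-08). It then recovered in part, by 0.23 ± 0.062 from 6 to 9 hr (adjusted p = 0.00452), and was still lower than untreated at 9 hr (−0.34 ± 0.062, adjusted p = 5.81e-05). With quantile normalization its differences were larger, −0.60 at 1 hr, −1.27 at 3 hr and −0.95 at 9 hr. In the fit reported the difference of −0.18 at 1 hr (adjusted p = 0.0316) was not called without any 1 of the 4 WT mice (adjusted p from 0.0552 to 0.103).

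*Mrc1* (chr2:14229414-14332023, plus strand), which encodes the mannose receptor CD206, showed no called difference for 3 hr and then fell. The 4 WT values were 13.37, 13.40, 13.55 and 13.61 untreated, 13.33, 13.49, 13.51 and 13.73 at 3 hr, 12.80, 12.85, 12.95 and 12.96 at 6 hr, and 12.04, 12.07, 12.14 and 12.19 at 9 hr. The values at 6 and 9 hr lay apart from each other and from all earlier ones. The difference from untreated was −0.59 ± 0.084 at 6 hr (adjusted p = 1.85e-06) and −1.37 ± 0.084 at 9 hr (adjusted p = 7.35e-12), which left 0.387 of the untreated level. At 1 and 3 hr the differences of −0.0041 and 0.035 had 95% intervals within 0.21 of 0 on either side, but were called lower with quantile normalization (−0.30 and −0.58), which also moved the difference at 6 hr to −1.39.

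*Cd163* (chr6:124304636-124330529, plus strand), the receptor for haptoglobin-hemoglobin complexes, fell earlier and further. Its WT values went from 7.64, 7.80, 7.90 and 8.04 untreated to 5.33, 5.55, 5.57 and 5.64 at 6 hr. The difference was −0.46 ± 0.17 at 1 hr (adjusted p = 0.0406), −1.59 ± 0.17 at 3 hr and −2.32 ± 0.17 at 6 hr (adjusted p = 7.24e-11), which is 0.2 of the untreated level. From 6 to 9 hr no change was called (0.15 ± 0.17, adjusted p = 0.473). Without mouse 25, 69 or 87 the fall at 1 hr was not called (adjusted p from 0.0623 to 0.174). The same held with no filter (adjusted p = 0.0748) and with quantile normalization (adjusted p = 0.0734).

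Among the receptors that recognise dying cells, *Mertk* (chr2:128698915-128803162, plus strand) had the most irregular course. The 4 WT values were 9.37, 9.78, 9.86 and 9.97 untreated, 9.20, 9.24, 9.26 and 9.65 at 3 hr, 10.09, 10.25, 10.56 and 10.57 at 6 hr, and 8.89, 9.02, 9.14 and 9.16 at 9 hr. All 4 WT mice had their highest value at 6 hr and their lowest at 9 hr. The step from 3 to 6 hr, at which 63.7% of genes tested were called, was 1.03 ± 0.16, or 2.04-fold (adjusted p = 1.65e-05), and the step from 6 to 9 hr was −1.31 ± 0.16, to 0.402 of the level at 6 hr (adjusted p = 1.28e-06). Against untreated, *Mertk* was lower at 3 hr by 0.41 (adjusted p = 0.0347, but 0.189 without mouse 25 and 0.139 without mouse 69), higher at 6 hr by 0.62 (adjusted p = 0.0018) and lower at 9 hr by 0.69 (adjusted p = 0.000878).

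*Axl* (chr7:25756500-25788924, minus strand), the related receptor kinase, also peaked at 6 hr, in all 8 mice, but stayed raised. The WT values were 10.89, 10.96, 11.02 and 11.25 untreated, 12.20, 12.39, 12.44 and 12.83 at 6 hr, and 11.72, 11.92, 11.93 and 12.30 at 9 hr. The increase was 1.44 ± 0.13 at 6 hr, or 2.71-fold (adjusted p = 3.52e-09), and 0.94 ± 0.13 at 9 hr (adjusted p = 2.44e-06). The increase at 3 hr was 0.64 ± 0.13 (adjusted p = 0.000229), and quantile normalization gave 0.37 at 3 hr. *Gas6* (chr8:13465374-13494535, minus strand), the ligand of both kinases, moved the other way in the same libraries. Its WT values fell from 12.89, 13.02, 13.02 and 13.18 untreated to 11.76, 11.79, 11.80 and 11.85 at 6 hr and to 10.91, 11.05, 11.06 and 11.14 at 9 hr. *Gas6* was lower than untreated by 3 hr (−0.41 ± 0.067, and −0.98 with quantile normalization), and at 9 hr the difference of −1.99 ± 0.067 left 0.252 of the untreated level (adjusted p = 5.86e-16).

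*Timd4* (chr11:46810786-46844333, plus strand) encodes TIM4, known from resident macrophages of tissues. It was at the edge of detection in these cultures, with WT values of 1.66, 1.67, 1.69 and 1.82 untreated, 3.37, 3.89, 3.99 and 4.02 at 6 hr, and 2.57, 2.74, 3.35 and 3.48 at 9 hr. The WT mean at 6 hr lay 2.11 above the untreated mean, a value given without a test because the late libraries brought *Timd4* past the filter. All 4 WT mice had their highest value at 6 hr.

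**Figure D2:**
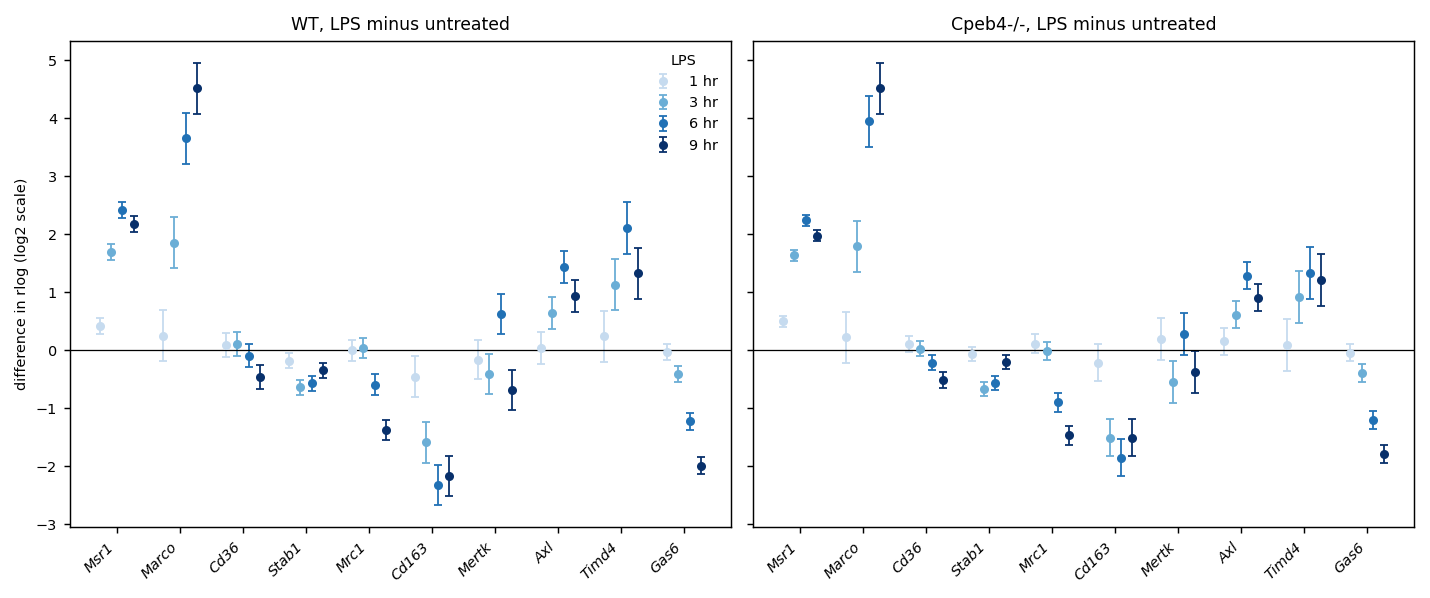
Difference in rlog (log2 scale) between each LPS time and untreated cells, in WT (left) and Cpeb4-/- (right) macrophages, as estimates with 95% intervals from limma over 4 mice per group. Timd4 passed the filter only through its late values, so its points are a description. In both genotypes Marco reaches about the same difference at 9 hr (4.52 in each), Gas6, Mrc1 and Cd163 are the members that fall most, and only Mertk in WT cells lies on both sides of 0 with intervals that leave out 0.

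Over the 10 group means, the members fell into courses that resembled each other or mirrored each other, as a description over means that share mice. *Axl* and *Msr1* had a Pearson r of 0.962, *Mrc1* and *Gas6* 0.969, and *Msr1* and *Cd163* −0.992, whereas no r of *Mertk* with another member exceeded 0.314. Among 6041 genes with a range of at least 1 over the group means, the courses most like those of *Msr1* were of *Rab10* (0.996) and *Cd274* (0.995), and of *Marco* those of *Gstt1* and *Saa3* (both 0.997). For *Mrc1* they were *Slc9a9* (0.996) and *Atp2a3* (0.992), and for *Gas6* *Mnd1* (0.997) and *Serpinb6a* (0.996). *Axl* was matched by *Selenot* (0.998) and *Rpe* (0.997), *Cd163* by *P2rx6* (0.993) and *4930432K21Rik* (0.99), *Cd36* by *Col4a5* (0.992), *Stab1* by *Zcchc24* and *Aatk* (0.988 and 0.987) and *Timd4* by *Rnf135* (0.985) and *Enpp4* (0.984). *Mertk* had the least similar neighbours, *Mllt3* (0.944) and *Ppm1e* (0.885).

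Cpeb4-/- macrophages went through the same sequence of changes in most members. Of the 9 counted, 1 was called at 1 hr against untreated Cpeb4-/- cells (43.8% of genes tested), 7 at 3 hr (71.3%), 8 at 6 hr (79.1%) and 8 at 9 hr (72.8%). At 9 hr 3 were higher and 5 lower (36.4% of genes in each direction). *Msr1* rose by 2.24 ± 0.046 at 6 hr and *Marco* by 4.52 ± 0.21 at 9 hr, while *Gas6* fell by 1.80 and *Mrc1* by 1.47 at 9 hr. *Mertk* was not called at 6 hr (0.29 ± 0.17, adjusted p = 0.137) or at 9 hr (−0.37 ± 0.17, adjusted p = 0.063). At 6 hr it was called higher without mouse 2 (0.42, adjusted p = 0.0481) or mouse 62 (0.44, adjusted p = 0.0366). *Mertk* was called lower at 9 hr in 5 of 12 alternatives, among them the fit with the mouse as a block (adjusted p = 0.0385), quantile normalization (0.0326) and the fits without mouse 3 (0.0436) or mouse 55 (0.0438). *Cd36* was lower at 6 hr by 0.21 (adjusted p = 0.00441, but 0.0802 without mouse 62). At 1 hr *Axl* was called higher with the mouse as a block (0.15, adjusted p = 0.0296), and without mouse 2 *Axl* (0.20, adjusted p = 0.0275) and *Mrc1* (0.14, adjusted p = 0.0377) were. With quantile normalization *Mrc1* was instead called lower at 1 hr (−0.20, adjusted p = 0.0437), as were *Cd36* (−0.33), *Stab1* (−0.47) and *Gas6* (−0.34).

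To ask whether the loss of CPEB4 changes these mRNAs, the 4 Cpeb4-/- libraries of each time were compared with the 4 WT libraries. *Mrc1* was lower in Cpeb4-/- macrophages at 6 and 9 hr, and *Gas6* was lower at 6 hr. No member counted was called in untreated cells (1.31% of genes tested), at 1 hr (1.91%) or at 3 hr (3.68%) by limma, although 4, 4 and 1 of the 9 had an unadjusted p under 0.05. At 6 hr 2 were called (16.3%), both lower (9.92% of genes, against 6.4% higher), and at 9 hr 1 (7.91%), also lower (3.22% of genes, against 4.69% higher). The called members were those whose groups did not overlap, as in 20.2% of genes at 6 hr and 16.9% at 9 hr. The median difference of the 9 members at 6 hr was −0.071, against −0.015 over all genes tested.

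The Cpeb4-/- values of *Mrc1* were 12.24, 12.40, 12.48 and 12.66 at 6 hr and 11.80, 11.84, 11.89 and 11.96 at 9 hr. They lay below all WT values of the same time, which began at 12.80 and 12.04. The difference was −0.44 ± 0.075 at 6 hr (95% interval −0.60 to −0.28, adjusted p = 0.00239), or 0.736 of the WT level, and −0.24 ± 0.054 at 9 hr (−0.36 to −0.12, adjusted p = 0.0243). It had the same sign in both labelled batches, each with 2 mice of each genotype (−0.63 and −0.25 at 6 hr, −0.32 and −0.16 at 9 hr). The call at 6 hr held in all 16 alternatives (adjusted p from 8.38e-05 to 0.032), whereas that at 9 hr was lost in 8 of 16 (adjusted p up to 0.0835), among them the fits without Cpeb4-/- mouse 3, 55 or 62 or without WT mouse 25, 87 or 88. In untreated cells, at 1 hr and at 3 hr the differences were −0.14, −0.022 and −0.19, with adjusted p-values of 0.3, 0.847 and 0.264. The fall from untreated to 6 hr was larger in Cpeb4-/- cells by 0.30 ± 0.12, which was not called in the model of all 40 libraries (adjusted p = 0.179) but was called with the mouse as a block (SE 0.085, adjusted p = 0.0254).

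The mean of *Gas6* was lower in Cpeb4-/- cells by a similar amount at 4 of the 5 times, mostly through labelled batch 1. Its Cpeb4-/- values were 12.72, 12.77, 12.85 and 12.93 untreated, 12.34, 12.34, 12.50 and 12.51 at 3 hr, 11.50, 11.58, 11.68 and 11.71 at 6 hr, and 10.88, 10.89, 11.10 and 11.21 at 9 hr. The groups did not overlap at 1, 3 and 6 hr, where this held for 15.7%, 13.6% and again 20.2% of all genes tested. The difference was −0.21, −0.22, −0.20 and −0.18 from untreated to 6 hr and −0.017 at 9 hr, and it was called at 6 hr only (SE 0.048, 95% interval −0.29 to −0.077, adjusted p = 0.0233). That call was lost in 8 of 16 alternatives (adjusted p up to 0.0871), among them the fits without Cpeb4-/- mouse 3 or 62 or without WT mouse 25 or 88. From untreated to 6 hr batch 1 gave −0.35, −0.37, −0.35 and −0.28, and batch 2 gave −0.067, −0.062, −0.049 and −0.080. At 9 hr the batches had opposite signs (−0.21 and 0.18). With all 40 libraries in 1 fit and the mouse as a random block, *Gas6* was also called lower in untreated cells (adjusted p = 0.043), at 1 hr (0.0101) and at 3 hr (0.027). With the mouse as a fixed block its fall from untreated to 9 hr was smaller in Cpeb4-/- than in WT cells by 0.19 ± 0.054 (adjusted p = 0.0298, and 0.481 without the block).

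*Timd4* was below the filter in untreated cells and at 1 hr, where the genotypes gave 2-sided exact permutation p-values of at least 0.4 (the smallest that 4 against 4 allow is 0.029). At 6 hr its Cpeb4-/- values were 2.58, 2.85, 3.34 and 3.44, of which 3.44 lay above the lowest WT value of 3.37. The difference at 6 hr was −0.76 ± 0.22 (adjusted p = 0.0339 by limma), with an exact permutation p of 0.0571. This call was lost in 7 of 15 alternatives, namely with no filter (adjusted p = 0.128), with eBayes without trend (0.0577), and without Cpeb4-/- mouse 2 or 3 or WT mouse 69, 87 or 88 (from 0.08 to 0.0914), and both batches gave negative differences (−0.68 and −0.85). *Timd4* lies on the same chromosome as *Cpeb4*, 14.9 Mb from its end.

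**Figure D3:**
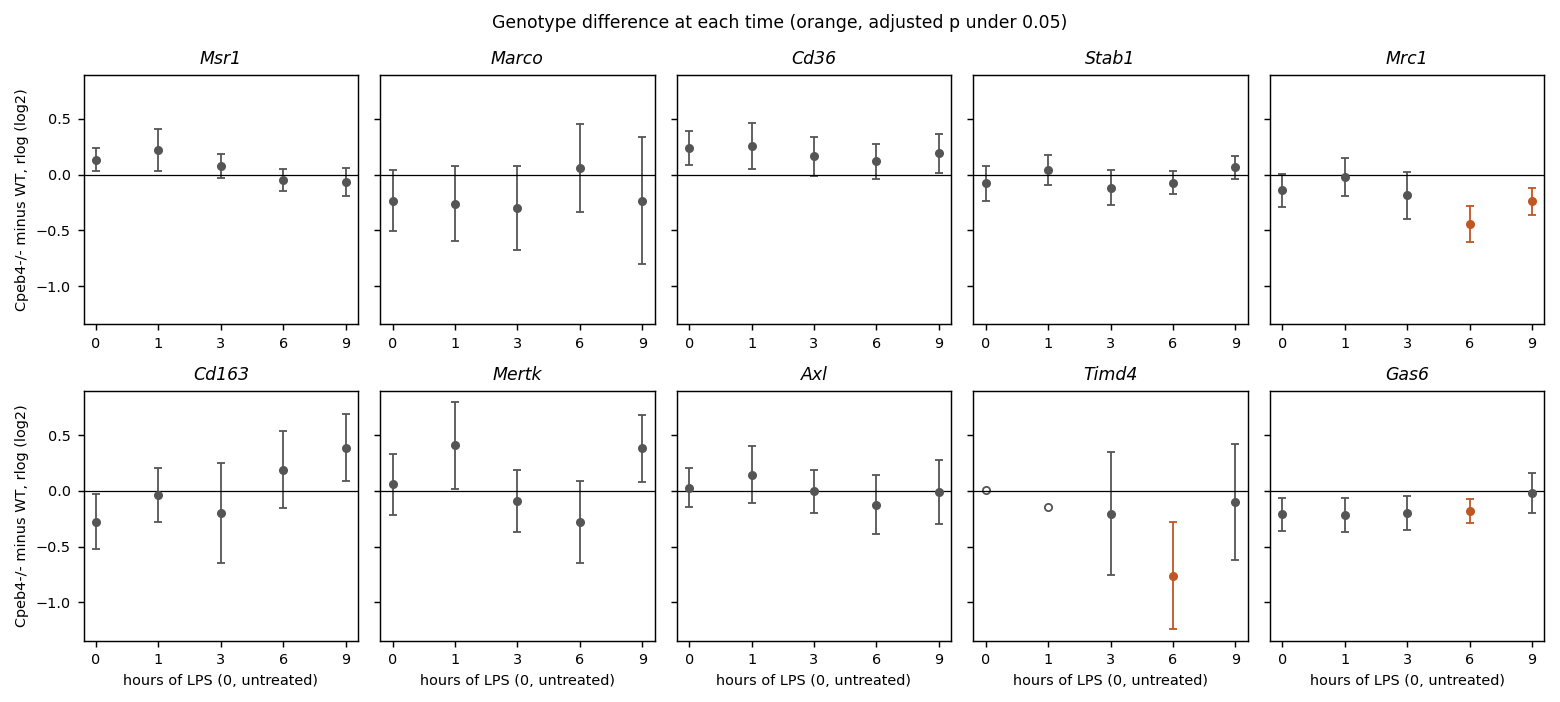
Difference in rlog (log2 scale) between Cpeb4-/- and WT macrophages for each mRNA at each time, with 95% intervals from limma over 4 against 4 mice, orange where called. Open circles are Timd4 values below the filter, given as mean differences without interval. Mrc1 is lower at 6 hr (−0.44) and 9 hr (−0.24), and Timd4 is lowest at 6 hr (−0.76). The mean of Gas6 is lower by about the same amount up to 6 hr, mostly through labelled batch 1.

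For the other members no genotype difference was called, and the intervals show what could be seen with 4 mice. *Msr1* in untreated cells was 13.02, 13.05, 13.06 and 13.11 in Cpeb4-/- mice, above all WT values, as in 10.5% of genes, but its difference of 0.14 was not called (95% interval 0.032 to 0.24, adjusted p = 0.187). At 6 and 9 hr the *Msr1* intervals were −0.15 to 0.052 and −0.20 to 0.055. For *Marco* they were wide, −0.33 to 0.45 at 6 hr and −0.80 to 0.34 at 9 hr. *Axl* had intervals of −0.39 to 0.14 at 6 hr and −0.30 to 0.28 at 9 hr, and *Stab1* of −0.17 to 0.030 and −0.039 to 0.17.

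The mean of *Cd36* lay above that of WT cells at every time, by 0.12 to 0.26, without a call (adjusted p from 0.0996 to 0.298). Its batches gave 0.33 and 0.053 at 9 hr, and with quantile normalization it was called higher at 6 hr (0.25, adjusted p = 0.0283) and 9 hr (0.26, adjusted p = 0.0491). *Mertk* at 9 hr was 9.04, 9.35, 9.56 and 9.79 in Cpeb4-/- mice, where the WT mice ended at 9.16, a difference of 0.38 ± 0.14 (adjusted p = 0.11). *Cd163* at 9 hr differed by 0.39 ± 0.14 (adjusted p = 0.103), and was called higher with batch as a covariate (adjusted p = 0.0486) and without Cpeb4-/- mouse 55 (0.52, adjusted p = 0.0326).

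Whether some of these differences were called depended on single libraries and on the fit. Without Cpeb4-/- mouse 2, whose *Mertk* value at 9 hr was the lowest of its group, *Mertk* (0.51, adjusted p = 0.00361) and *Cd36* (0.23, adjusted p = 0.032) were called higher at 9 hr beside *Mrc1*. Without WT mouse 69, *Cd36* (0.34, adjusted p = 0.0334) and *Msr1* (0.30, adjusted p = 0.0414) were called higher at 1 hr. With all 40 libraries in 1 fit the same 2 genes were called at 1 hr with no library left out (adjusted p of 0.0246 and 0.00707), together with *Gas6* (0.0263). At 3 hr no member was called with or without WT mouse 88.

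The change with LPS itself was compared between genotypes in 1 model of the 40 libraries. None of the 9 members differed at 1 hr (0.00763% of genes called), 3 hr (0.206%), 6 hr (2.94%) or 9 hr (1.76%) by limma without a block, and 0, 0, 2 and 2 of them had an unadjusted p under 0.05. These were *Mrc1* and *Msr1* at 6 hr, and *Msr1* and *Cd163* at 9 hr. The change of *Msr1* in Cpeb4-/- minus that in WT cells was −0.18 at 6 hr (adjusted p = 0.247) and −0.21 at 9 hr (adjusted p = 0.221), and that of *Cd163* was 0.66 at 9 hr (adjusted p = 0.165). This model left out the pairing by mouse. With the mouse as a fixed block *Mrc1* at 6 hr (limma, adjusted p = 0.0254) and *Gas6* at 9 hr (0.0298) were called.

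Other genes of the same processes were described from 6 lists, whose counts in WT cells at 9 hr stand against 35.9% of all genes tested being higher and 35.6% lower. Of 12 other scavenger receptors tested, 4 were higher and 6 lower in WT cells at 9 hr against untreated, with a median difference of −0.31. *Stab2*, the paralog of *Stab1*, fell by 1.90, and *Scarf2* (1.88) and *Olr1* (1.66), which encodes the receptor LOX-1 for oxidised lipoproteins, rose. Of the 4 tested of the mannose receptor family and the macrophage galactose lectins, *Ly75* (2.72), which encodes DEC-205, and *Pla2r1* (2.06) rose (median of the list 0.55). The lectin genes *Clec10a* and *Mgl2* fell by 2.99 and 0.97.

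Among the 16 genes tested of the list of other phosphatidylserine receptors and bridging proteins, 4 were higher and 9 lower at 9 hr in WT cells (median −0.28). This list also holds *Cd47* and *Sirpa*, which are neither. *Itgb3*, an integrin subunit that binds bridging proteins, fell by 2.70 and *Havcr2*, which encodes TIM3, by 2.58. *Thbs1*, the bridging protein thrombospondin 1, rose by 2.31. Of 13 genes of the engulfment machinery, which turns receptor signals into actin movement, 8 were higher and 3 lower, with *Rac2* (1.29) and *Vav1* (1.23) higher and *Dock1* lower (−1.48). The median of this list was 0.37, against −0.0044 over all genes tested.

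Among 12 nuclear receptors and transcription factors known to drive such receptors, 7 were higher and 4 lower at 9 hr (median 0.24). *Nr1h3*, which encodes the liver X receptor alpha, rose by 1.76. *Pparg*, a nuclear receptor known to drive *Cd36*, fell by 1.88, and *Klf4* fell by 1.69. Of 5 sheddases and their partners, which cut receptors such as MERTK and CD163 from the surface, 3 were higher and 1 lower (median 0.64), with *Rhbdf2*, a partner of ADAM17, higher by 1.38, *Adam9* higher by 0.70 and *Rhbdf1* lower by 0.95.

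In the same lists fewer genes differed between genotypes. At 6 hr the list of phosphatidylserine receptors and bridging proteins had 1 gene higher and 7 lower in Cpeb4-/- cells of 16 tested, where 6.4% of all genes tested were higher and 9.92% lower. *Thbs1* was higher by 0.53, and *C1qc* and *C1qa*, subunits of the complement protein C1q that can bridge to dying cells, were both lower by 0.34, as was *Cd300lf* (adjusted p = 0.0496). The median of this list was −0.24, against −0.015 over all genes tested. The other lists had 3 lower of 12 scavenger receptors (*Scarf2* −0.56, *Cd68* −0.26, *Scarf1* −0.23), 1 higher of 4 mannose receptor family genes and lectins (*Ly75* 0.61), and 4 lower of 13 engulfment genes (*Vav1* and *Rac2*, both −0.24, and *Rhog* −0.23 the largest). The transcription factors had 3 higher and 4 lower of 12 (*Nr1h3* 0.36 and *Ppard* 0.32 among the higher ones), and no sheddase gene was called.

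At 9 hr, when 4.69% of all genes tested were higher and 3.22% lower, *Thbs1* was higher in Cpeb4-/- cells by 1.04, and *C1qc* (−0.36) and *C1qb* (−0.31) were lower. *Scarf2* (−0.75) and *Cd68* (−0.25) were lower, as were *Rac2* (−0.35) and *Spi1* (−0.30), which encodes the macrophage factor PU.1. *Ptk2* (0.45) and *Dock1* (0.34) were higher. In untreated cells, at 1 hr and at 3 hr, from 0 to 3 genes of any list were called in either direction.

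**Figure D4:**
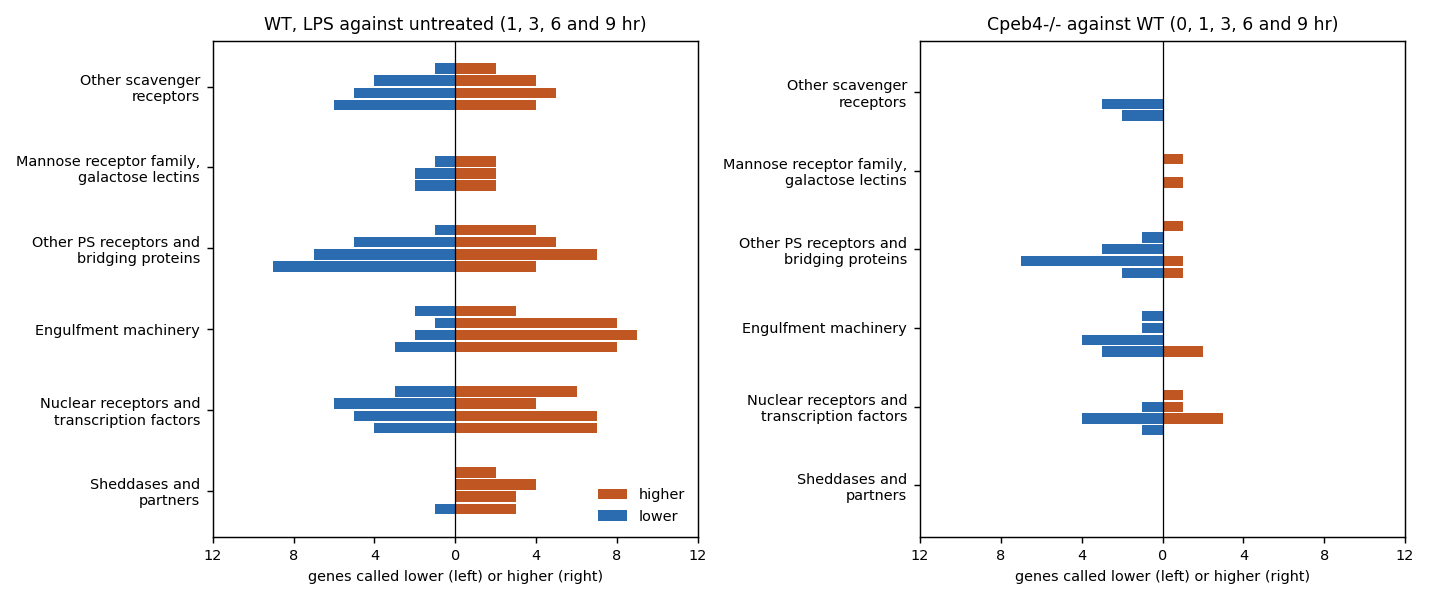
Number of genes of the 6 lists called higher (orange, right) or lower (blue, left) in WT macrophages at 1, 3, 6 and 9 hr against untreated (left panel, bars from top to bottom of each list) and in Cpeb4-/- against WT at 0, 1, 3, 6 and 9 hr (right panel). With LPS the engulfment genes are mostly higher (8 of 13 at 9 hr). Between genotypes most calls lie at 6 hr, where 7 of 16 genes in the list of phosphatidylserine receptors and bridging proteins are lower.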

How the data were processed

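Poly(A) RNA of the 40 BMDM libraries was sequenced by the authors, who aligned reads to mm10 with STAR 2.3.0e, counted them per gene with featureCounts and applied the rlog transformation of DESeq2. The deposited values are these log2 scale values, already corrected for library size, with 0 value columns left unused. Counts and depth were not used here, so that precision rests on the spread between mice. WT and Cpeb4-/- time courses (20 libraries each), genotypes (8 libraries per time) and the interaction (40 libraries) were fitted with limma 3.58.1 (eBayes with trend) in R 4.3.3, 2-sided, with Benjamini-Hochberg adjustment over the genes whose mean rlog reached 2.32. Fits were tested on simulated data with independent libraries, which cannot show what leaving out the pairing by mouse does. The p-values of the genotype comparisons measure the spread between mice. The fits of the time courses and the interaction took the libraries as independent and left out the pairing by mouse. They therefore do not measure how the change within a mouse varies, and the mouse as a block was an alternative. The pairing of libraries by mouse comes from the labels, and after removal of group means the median r between libraries of 1 mouse was 0.29, with 68 of 80 such pairs above 0.1, and that between mice of a genotype was −0.091.

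Members, gene lists, marker lists and alternatives were chosen with earlier results of these data known, and the 3′-UTR search was added after the values were seen. Named are all members, *Cpeb4*, the 2 genes nearest to each member by Pearson r over the 10 group means, and per list up to 3 called genes with the largest difference at 9 hr in WT cells and between genotypes at 6 and 9 hr. Some genes that this rule names are not reported here. *Mgl2* was named beside them because its list holds only 4 tested genes. Lists were other scavenger receptors, the mannose receptor family with galactose lectins, other phosphatidylserine receptors and bridging proteins, engulfment machinery, nuclear receptors and transcription factors, and sheddases. Marker lists were those of macrophages, neutrophils, B cells, T cells, dendritic cells, erythroid cells, mast cells and basophils, stromal cells and endothelial cells. A list of 6 genes induced by LPS had summed levels of 21300 to 23200 in untreated and 112000 to 353000 in treated libraries at 6 and 9 hr. The alternatives were no filter, a higher filter (mean rlog 5), eBayes without trend or robust, quantile normalization, batch as a covariate, the mouse as a block, other sets of libraries in the fit, and each mouse left out. Gene locations are those of RefSeq on GRCm38, and the 3′-UTRs were read from GENCODE M21 transcripts. Figures were drawn with matplotlib 3.10.9.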

Additional observations from a re-analysis of the deposited data

Results flagged for a closer look

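In 6 of the 100 groups of 4 values (10 mRNAs in 10 groups) 1 mouse stood far from the other 3 by Dixon's test at the 95% level, where chance gives about 1 in 20. In WT cells these were *Marco* at 6 hr, with 12.46 in mouse 87 against 11.72 to 11.82, and *Mertk* at 3 hr, with 9.65 in mouse 88 against 9.20 to 9.26. In Cpeb4-/- cells they were *Mrc1* at 3 hr, with 13.57 in mouse 2 against 13.21 to 13.27, and *Cd163* at 1 hr, with 7.53 in mouse 62 against 7.28 to 7.30. *Cd163* at 6 hr was 5.19 in mouse 3 against 5.84 to 5.94, and *Timd4* at 9 hr was 3.35 in mouse 55 against 2.74 to 2.83. Mouse 55 also had the highest *Col1a1* and *Col1a2* values of the Cpeb4-/- libraries at 9 hr (4.62 and 4.11).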

How the results depend on the processing

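The 105 member differences followed were those called, those larger than 2 SE and those whose groups did not overlap. Of their 1334 alternative fits, 1270 stayed on the same side of the threshold, 42 lost and 21 gained a call, and 1 reversed. The reversed one was *Msr1* from 6 to 9 hr in WT cells, at 0.090 with quantile normalization. Differences not followed are outside these counts, and some changed sign and were called lower with quantile normalization. Among them in WT cells were *Cd36* at 1 hr (0.090 to −0.36) and 3 hr (0.10 to −0.53) and *Mrc1* at 3 hr (0.035 to −0.58). That normalization moved the median of all genes up by 0.101 at 6 hr and 0.102 at 9 hr in WT cells against untreated. In Cpeb4-/- cells the median moved up by 0.124 at 6 hr. Single members could move further: the differences of *Msr1*, *Cd36* and *Mrc1* at 6 hr in WT cells, given above, moved down and by more. The cause of these changes was not tested. The number of the 9 members called went from 3 to 1 at 1 hr in WT cells with no filter, from 8 to 5 for 9 against 6 hr with quantile normalization, and from 1 to 5 at 1 hr in Cpeb4-/- cells with quantile normalization. Between genotypes it went from 2 to 1 at 6 hr with no filter, with eBayes without trend and with all 40 libraries in 1 fit, from 1 to 0 at 9 hr with eBayes without trend and to 2 with batch as a covariate, and from 0 to 3 at 1 hr with all 40 libraries. With the replicate block (mouse) it went from 1 to 2 at 1 hr in Cpeb4-/- cells, between genotypes from 0 to 1 in untreated cells, to 3 at 1 hr and to 1 at 3 hr, and in the interaction from 0 to 1 at 6 hr and at 9 hr; the block moved no other count of members by over 1.5 times. Without 1 mouse the count ran from 1 to 2 at 1 hr in WT cells, from 1 to 3 at 1 hr in Cpeb4-/- cells, and between genotypes from 0 to 2 at 1 hr, from 1 to 2 at 6 hr and from 0 to 3 at 9 hr. Over all genes, calls between genotypes ran over the alternatives from 44 to 414 in untreated cells (171 in the fit reported), from 40 to 4323 at 1 hr (251), from 76 to 2584 at 3 hr (481), from 1288 to 2331 at 6 hr (2129) and from 387 to 4575 at 9 hr (1029), and interaction calls from 84 to 1032 at 6 hr (385) and from 89 to 654 at 9 hr (231). The depth of the libraries is not given in the table, and 4 mice per group set the intervals.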
